A study of Mus musculus with 8 samples.

Results

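The 10 genes described here mark the primitive streak and the mesoderm that leaves it: the ligand genes Wnt3, Wnt8a and Fgf8, the receptor gene Kdr, and the transcription factor genes Mixl1, Evx1, Mesp1, Lhx1, Foxf1 and Prrx1. They were taken by name, whatever their values, from the 21154 genes to which probes of a single-colour expression array could be matched. All 15 of their probes, of 28026 named probes, were read on 8 arrays of mouse embryonic stem (ES) cells. All cells were H-Ras-/- and N-Ras-/- and carried RERTert/ert, through which 4-hydroxytamoxifen (OHT) activates a Cre recombinase made from the Polr2a locus, and OHT leaves these cells without RAS. Cells of ERF-WT or ERF-KO genotype were either left untreated or kept in OHT for at least 2 days, which gave 4 groups of 2 arrays. Each sample was a mix of 2 clones. The source names give 4 cell pools, A1 and B1 for the wild type and A2 and B2 for the labelled knockout, each sampled in both states. ERF, an ETS factor that represses transcription, is held out of the nucleus when ERK phosphorylates it, and the design asks which changes after RAS loss depend on it.

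In the embryo, WNT3 is required to start the primitive streak, with NODAL and BMP signals acting beside it. Cells that pass through the streak switch on T-box, homeobox and bHLH factors such as MIXL1, EVX1 and MESP1, and FGF8 is needed for them to move away. ES cells grown with LIF are not streak cells, and ERK signalling downstream of FGF favours their exit from the naive state.

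Pou5f1, Sox2 and Nanog, which define ES cells, were well above background on all 8 arrays, with log2 levels relative to the array's 75th percentile of 3.88 to 5.68, 2.91 to 3.69 and 4.26 to 7.06. Between 54.0% and 63.6% of probes were well above background per array, and the 75th percentile of the processed signal ran from 309.5 to 525.5. Both B1 arrays were on slide 2 and the other 6 on slide 1, so for the wild type the change within a slide is the change within a pool. Dark patches, areas where neighbouring spots read low together, covered 1.37% of the A2 array with OHT, 0.408% of the B2 array with OHT and at most 0.0135% of any other array. None of the 120 values of member probes came from one, but the surroundings of the fitted Foxf1 spot on the A2 array with OHT read 0.91 lower (log2) than on the other arrays. The Erf probe had log2 levels of 4.93 to 5.43 on the wild type arrays, of 3.45 and 3.92 in pool A2, and of 5.65 and 5.31 in pool B2, untreated and with OHT. Pool B2 read higher for Erf than both wild type pools in each state, and its label goes against this probe. The sources used here do not say where the probe lies relative to the deleted part, so the genotype is called the labelled knockout throughout.

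RefSeq promoters (build GRCm38.p6) were at hand for 6 of the 10 genes. Those of 4 are shown because they differ in which short motifs lie in the 250 bases before the start of the gene. The letters searched, on both strands, were the ETS site CCGGAAG, found in 6.91% of 32851 promoters, the TCF/LEF site CTTTGAT (3.21%), the T-box core TCACACC (3.33%), the E-box CACCTG (17.2%) and the homeobox core TAATTA (4.84%). No match overlapped another motif, and capitals mark the matches. Wnt3 (chr11:103773925-103774174, plus strand) held none of these motifs. Evx1 (chr6:52313248-52313497, plus strand) held an E-box 37 bases before the start. Mesp1 (chr7:79793591-79793840, minus strand) held an E-box at 126 bases and a TCF/LEF match at 31 bases before the start. Prrx1 (chr1:163313651-163313900, minus strand) held the homeobox core at 173 bases.
Wnt3: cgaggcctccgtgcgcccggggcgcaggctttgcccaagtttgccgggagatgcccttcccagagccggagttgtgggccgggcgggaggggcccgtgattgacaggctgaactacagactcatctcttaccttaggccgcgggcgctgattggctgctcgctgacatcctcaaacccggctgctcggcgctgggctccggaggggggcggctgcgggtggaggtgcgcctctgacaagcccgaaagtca
Evx1: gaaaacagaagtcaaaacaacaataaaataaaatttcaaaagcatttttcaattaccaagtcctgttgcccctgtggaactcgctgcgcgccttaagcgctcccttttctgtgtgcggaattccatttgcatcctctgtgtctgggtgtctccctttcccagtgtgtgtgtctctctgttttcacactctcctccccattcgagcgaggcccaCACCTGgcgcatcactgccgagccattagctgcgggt
Mesp1: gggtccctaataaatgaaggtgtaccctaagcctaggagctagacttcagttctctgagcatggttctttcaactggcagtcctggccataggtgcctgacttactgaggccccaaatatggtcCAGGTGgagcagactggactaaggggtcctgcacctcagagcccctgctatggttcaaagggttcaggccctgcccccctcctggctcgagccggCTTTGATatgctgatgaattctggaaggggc
Prrx1: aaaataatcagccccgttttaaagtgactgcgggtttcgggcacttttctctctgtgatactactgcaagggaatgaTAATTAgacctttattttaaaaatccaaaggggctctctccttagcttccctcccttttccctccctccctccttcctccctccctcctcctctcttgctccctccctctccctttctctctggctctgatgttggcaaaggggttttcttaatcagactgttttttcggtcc
The ETS letters were in 0 of the 6 promoters, those of Kdr and Lhx1 included, which says only that this spelling is not in these windows.

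Of the members, 5 had at least 1 probe well above background on all 8 arrays: Wnt3, Fgf8, Lhx1, Kdr and Prrx1. Wnt8a was measured in this way on 7 arrays, Foxf1 on 6, Mesp1 and Evx1 on 4 each, and Mixl1 on none. The tests took 8 members, those whose probe stood well above background in 1 group or more (on both its arrays), and left out Mixl1 and Evx1. A member that entered only through a group in which it was bright had to differ to some degree, so counts over these 8 are a description. Mesp1 entered only through the untreated wild type.

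On group means, with 2 arrays a group, limma called 0 of the 8 members and 0% of 15182 genes in each of 5 comparisons: OHT in the wild type, OHT in the labelled knockout, the difference of these effects, and the comparison of genotypes in each state. At an unadjusted p under 0.05, 906 genes and no member would pass with OHT in the wild type. For the labelled knockout it would be 586 genes with 2 members, Foxf1 and Prrx1. In the difference of effects 196 genes and no member had such a p, in the comparison of genotypes without OHT 206 genes and no member, and with OHT 334 genes and Foxf1. A paired fit had the pool as a block, or the replicate number where genotypes were compared. Dark patches were left out and the variance followed the signal. This fit called 2 of 8 members with OHT in the wild type, where 13.5% of all genes passed. In the labelled knockout it called 1 of 8, where 7.29% of genes passed, and in the other 3 comparisons 0 members and 0% of genes. The calls were Wnt3 in the wild type, higher as were 5.68% of genes, and Wnt8a in both genotypes, lower as were 7.85% of genes there and, in the labelled knockout, 4.37%, beside 2.92% that were higher. The median change of the 8 members with OHT was 0.09 (log2) in the wild type, beside -0.05 over all genes, and -0.11 in the labelled knockout, beside 0.02.

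Wnt8a, a WNT ligand gene of the posterior epiblast and streak, was lower with OHT in every pool. Its processed signal was 292.5 in A1, 58.8 in B1, 194 in A2 and 58.3 in B2 without OHT. With OHT it was 121, 15.0, 79.8 and 27.4 in the same order, and the B1 array was not well above background. The treated array was the dimmer one in each pool, while the A pools were the brighter ones in both states. The log2 change relative to the 75th percentile was -1.60 in A1, -2.11 in B1, -1.20 in A2 and -1.18 in B2. Over the 3 pools measured in both states this was 2.27-fold to 3.03-fold, and the B1 change rests on a treated value that was not well above background. With that B1 value counted, a decrease of at least 2-fold in all 4 pools was shared by 0.398% of genes, and a like increase, seen in no member, by 0.239%. In the paired fit Wnt8a fell by 1.85 ± 0.23 (log2, SE) in the wild type and by 1.22 ± 0.23 in the labelled knockout, with limma adjusted p = 0.00651 and 0.0357. The SE is the same for both genotypes because the fit takes 1 spread from all 4 pools. The labelled knockout call was lost in the paired fit without the filter on dim probes (adjusted p = 0.0811) and with dark patches kept (adjusted p = 0.0591). On group means, where the spread between pools enters, the same changes of -1.85 ± 1.12 and -1.19 ± 1.12 did not pass (limma adjusted p = 0.991 and 1.00). The wild type call was lost without A1 or without B1, and the labelled knockout call without any 1 of the 4 pools. With a pool left out, the residual spread comes only from the genotype that keeps both pools, so a lost call says little about the change. The estimates then ran from -2.11 to -1.60 in the wild type and from -1.25 to -1.20 in the labelled knockout. With the background corrected by normexp, which compresses dim spots, the changes were -1.07 and -0.59.

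Wnt3, the ligand gene required for the streak to form, was higher with OHT in every pool. Its processed signal was 112 in A1, 24.6 in B1, 509 in A2 and 41.6 in B2 without OHT. With OHT it was 243, 69.3, 927 and 77.2. Every treated array was brighter than its untreated partner, but pool A2 stood above every other pool in both states, and the highest array was 37.6 times the lowest. The log2 change was 0.79 in A1, 1.36 in B1, 0.95 in A2 and 0.80 in B2. In the paired fit Wnt3 rose by 1.07 ± 0.19 (log2, SE) in the wild type, with limma adjusted p = 0.0184, and the change in the labelled knockout was 0.84 ± 0.19, with adjusted p = 0.0521. On group means these changes were 1.07 ± 1.62 and 0.87 ± 1.62 (limma adjusted p = 1.00 for both). The wild type call was lost without A1 or without B1, where the residual spread comes from the labelled knockout pools alone. With a pool left out the wild type estimate ran from 0.79 to 1.36. After normexp the change was 0.51 in A1 and 0.11 in B1.

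**Figure D1:**
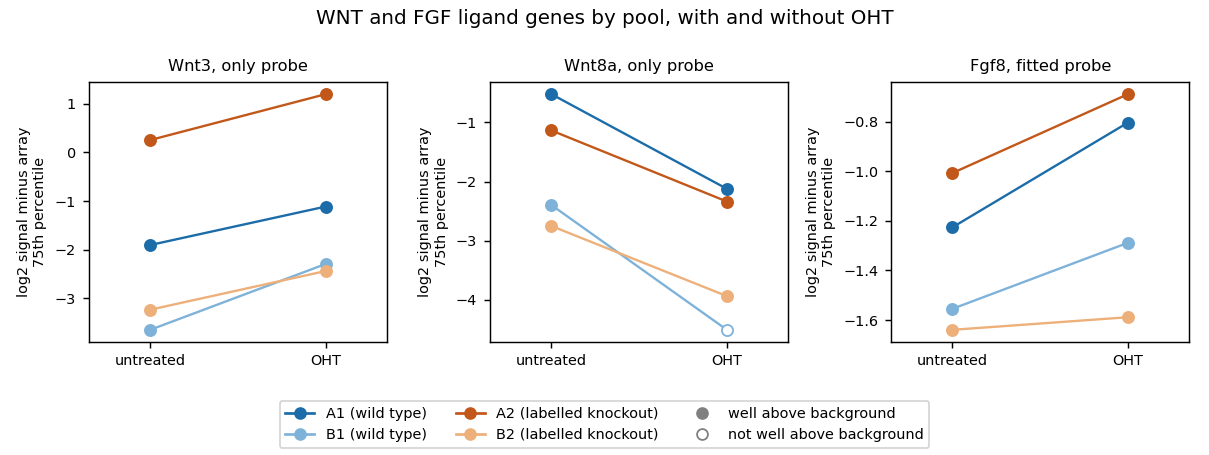
Log2 signal minus the array's 75th percentile for Wnt3, Wnt8a and the fitted Fgf8 probe in the 4 cell pools, untreated and with OHT; each point is 1 array, open points are not well above background, and each panel has its own scale. Wnt3 is higher and Wnt8a lower with OHT in all 4 pools, and for each gene the 4 arrays of the A pools lie above those of the B pools.

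Fgf8, the FGF ligand gene of the streak, was read by 3 probes. The fitted probe, the one with the highest mean, gave a processed signal of 180 in A1, 105 in B1, 212 in A2 and 126 in B2 untreated. With OHT it gave 301, 139, 250.4 and 139. Treated arrays were the higher ones in every pool but by little, with log2 changes of 0.42, 0.27, 0.32 and 0.05. The paired fit gave an adjusted p of 0.177 in wild type cells and 0.544 in labelled knockout cells, and under quantile normalization the B2 change was -0.05. The second probe, also well above background on all 8 arrays, changed by 0.02, 0.08, -0.53 and 0.68 in A1, B1, A2 and B2, so the probes had opposite signs in A2. The third was not well above background on any array.

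Kdr encodes the VEGF receptor that marks early blood and vessel progenitors of the mesoderm, and its 2 probes disagreed. The fitted probe had a processed signal of 2305 in A1, 1176 in B1, 2331 in A2 and 2569 in B2 untreated. With OHT it had 2844, 1572, 2266 and 2960. Its log2 change with OHT lay between -0.02 and 0.28, and its lowest arrays were those of B1, on slide 2. The other probe, printed at 10 spots, read 37.6, 25.5, 96.5 and 33.4 untreated and 47.9, 20.0, 118 and 18.4 with OHT. On the 10-spot probe pool A2 stood above every other pool in both states, while on the fitted probe the untreated A1 and A2 arrays had the same log2 level of 2.45. In the B pools the 10-spot probe changed by -0.48 and -0.95, with 4 and 2 of its spots well above background after OHT. In the paired fit the fitted probe had adjusted p = 0.431 in wild type cells and 0.818 in labelled knockout cells, and the 10-spot probe 0.796 and 0.680 when every probe was fitted singly.

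**Figure D2:**
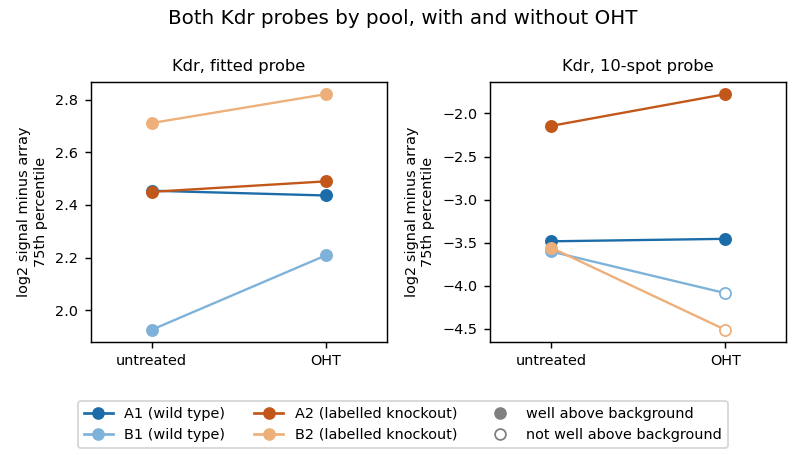
Log2 signal minus the array's 75th percentile for both Kdr probes in the 4 cell pools, untreated and with OHT; each point is 1 array, open points are not well above background, and each panel has its own scale. B2 is the highest and B1 the lowest pool on the fitted probe, while on the 10-spot probe A2 is the highest and B2 with OHT the lowest.

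Mesp1, the bHLH factor gene of nascent mesoderm and heart progenitors, was dim. Its processed signal was 29.0 in A1, 23.2 in B1, 15.1 in A2 and 54.7 in B2 untreated. With OHT it was 17.2, 9.86, 8.55 and 17.7. All 4 treated arrays were below their untreated partners, with log2 changes of -1.08, -1.37, -0.74 and -1.73, but 4 of the 8 values were not well above background. In the wild type the change of -1.22 ± 0.52 (log2, SE) had a paired adjusted p of 0.178. In the labelled knockout neither treated array was well above background, and of the untreated ones only B2 was, so A2 gives no measured change. The limma adjusted p was 1.00 on group means and 0.185 in the paired fit.

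Evx1, a homeobox gene of the posterior streak, was well above background on the 4 arrays of the A pools and on no array of the B pools. Its processed signal was 36.7 in A1, 6.38 in B1, 25.6 in A2 and 4.06 in B2 untreated. With OHT it was 96.0, 6.01, 51.4 and 11.3. Both A pools were higher with OHT, by 1.07 in A1 and 1.09 in A2 (log2), and the B pools give no measured change. Evx1 failed the filter, and without it the group means gave changes of 0.42 in wild type cells and 1.24 in labelled knockout cells (limma adjusted p = 1.00 for both). The paired fit without the filter gave adjusted p = 0.702 and 0.318. Mixl1, a homeobox gene switched on in the early streak, was not well above background on any array. Its signal was 14.8 on the untreated A1 array and between 3.23 and 4.26 on the other 7.

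Lhx1, a LIM homeobox gene of the streak and its derivatives, was measured on all arrays and had no shared direction. Its processed signal was 48.9 in A1, 29.1 in B1, 40.1 in A2 and 33.2 in B2 untreated. With OHT it was 43.4, 25.6, 19.4 and 46.0. It was lower with OHT in 3 pools and higher in B2, with log2 changes of -0.49, -0.32, -0.97 and 0.37. The paired adjusted p was 0.579 in wild type cells and 0.658 in labelled knockout cells.

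Foxf1, a forkhead gene of extraembryonic and lateral plate mesoderm, had changes of opposite sign in the genotypes. The fitted probe read 25.5 in A1, 27.7 in B1, 93.1 in A2 and 25.4 in B2 untreated. With OHT it read 60.9, 38.6, 3.22 and 19.5, and neither labelled knockout array was well above background. A2 went from the highest to the lowest of all 8 arrays, a log2 change of -4.77, while A1, B1 and B2 changed by 0.93, 0.34 and -0.48. The A2 spot with OHT is the one whose surroundings read 0.91 lower. With that value left out, by a dark cutoff of -0.5, which leaves B2 alone with OHT, the mean labelled knockout change was -1.38 on group means and -0.50 in the paired fit (limma adjusted p = 1.00 and 0.575). A bound set the brighter group's mean against the lowest signal counted as well above background on each array of the dimmer group. By it the mean of untreated labelled knockout cells was at least 2.81-fold that of treated ones. The mean of treated wild type cells was at least 2.71-fold that of treated labelled knockout cells. These bounds hold for means and not for each pool: B2 alone was 1.39-fold lower with OHT. They made no allowance for the low surroundings of the A2 spot. On group means the change in the labelled knockout was -2.63 ± 0.94 (log2, SE, limma adjusted p = 1.00), and the paired fit gave -2.66 ± 1.11 (adjusted p = 0.224). The difference of the OHT effects was -3.27 ± 1.32 (limma adjusted p = 1.00), and among the fits made it passed only in the paired fit without pool B2 (adjusted p = 0.00893), as did the labelled knockout change (adjusted p = 0.00475). That fit has A2 as its only labelled knockout pool, assumed to vary like the wild type pools, and its estimates of -5.47 and -4.83 rest on the treated A2 value, which was not well above background, so they are no measured sizes. Without A2 the estimates were -1.13 and -0.49 (adjusted p = 0.618 and 0.556). After normexp the mean wild type change was -0.08, so its direction turned. The other Foxf1 probe was not well above background on any array.

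Prrx1, a homeobox gene of mesenchyme, was highest in treated A2 cells. The fitted probe read 97.5 in A1, 83.8 in B1, 79.5 in A2 and 81.8 in B2 untreated. With OHT it read 101, 119, 217 and 131. The untreated arrays lay close together, and with OHT both labelled knockout arrays were above both of their untreated ones. The log2 change was -0.27, 0.37, 1.53 and 0.59 in A1, B1, A2 and B2. In the labelled knockout the paired fit gave 1.03 ± 0.28 (log2, SE, adjusted p = 0.0758), and 0.58 without A2 (adjusted p = 0.315). The difference from the wild type effect was 0.98 ± 0.39 (adjusted p = 0.722). The other probe was not well above background in untreated A1 and A2 and changed by 0.56, 0.28, 1.92 and -0.09, so A2 had the largest change on both probes, while A1 and B2 differed in sign between them.

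**Figure D3:**
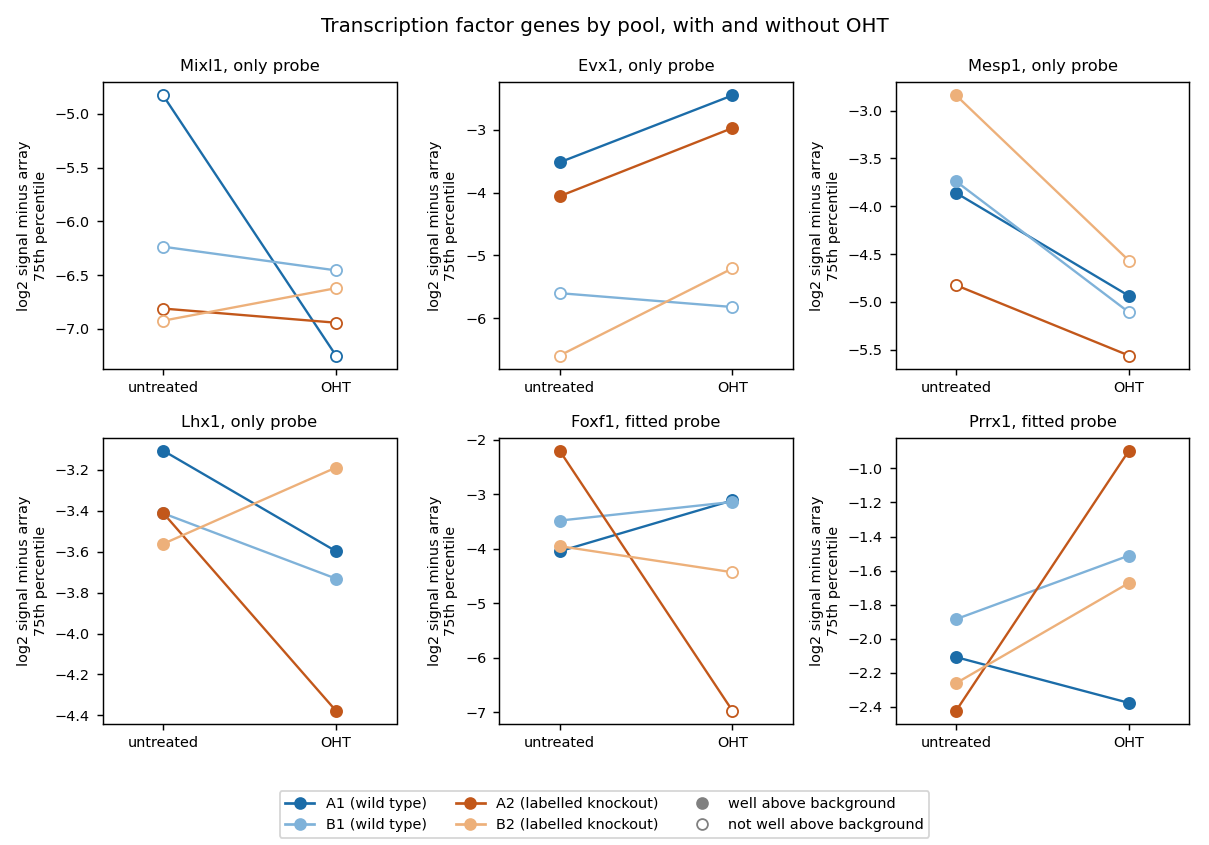
Log2 signal minus the array's 75th percentile for Mixl1, Evx1, Mesp1, Lhx1 and the fitted Foxf1 and Prrx1 probes in the 4 cell pools, untreated and with OHT; each point is 1 array, open points are not well above background, and each panel has its own scale. Evx1 is well above background on the 4 arrays of the A pools and no other, Mesp1 is lower with OHT in all pools, and Foxf1 and Prrx1 differ most between states in A2.

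Side by side, with OHT 2 of the 8 tested members, Wnt3 and Fgf8, were higher in all 4 pools, which 20.8% of genes were, and 2, Mesp1 and Wnt8a, were lower in all 4, which 24.2% were. These shares are near the members' own, so the agreement of pools is not particular to them. Neither A2 array of Mesp1 was well above background, nor was the treated B1 array of Wnt8a, so these directions are not all measured changes. Under quantile normalization Kdr took the place of Fgf8 among the higher and Lhx1 joined the lower. Where a group of 2 arrays lay wholly above or below its partner, Foxf1 was higher (16% of genes) and Mesp1 and Lhx1 lower (23.1%) with OHT in the wild type. The filter favoured the lower Mesp1 values with OHT, since Mesp1 entered only through the untreated wild type. In the labelled knockout Prrx1 was higher (14.9%) and Foxf1 lower (11.4%).

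**Figure D4:**
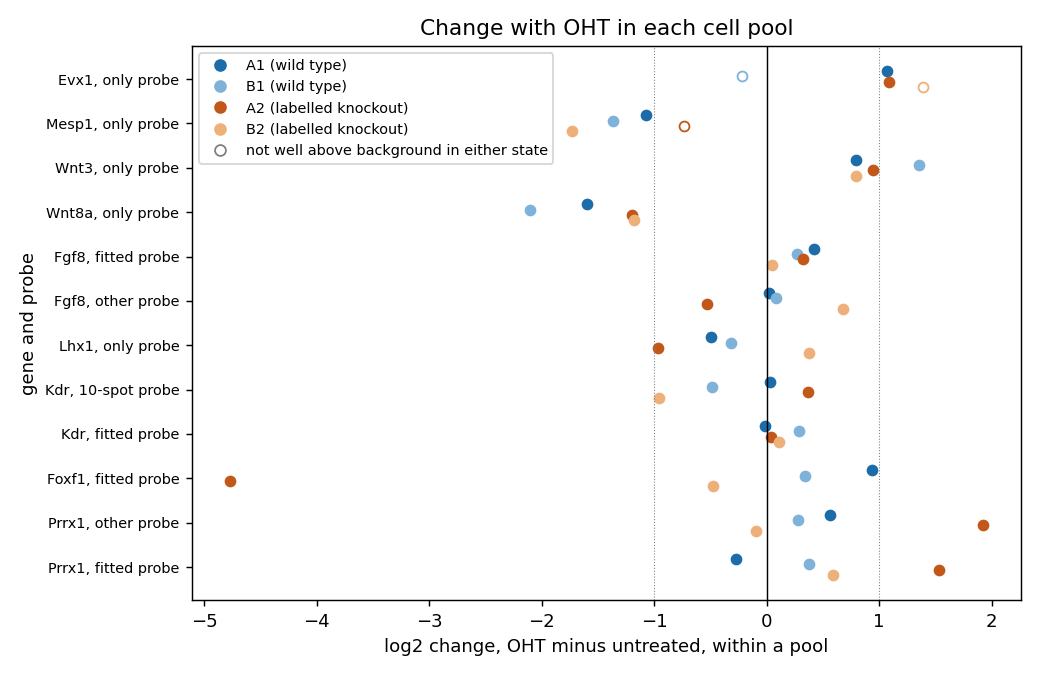
Log2 change, OHT minus untreated, within each of the 4 cell pools, for the 12 member probes that were well above background on at least 1 array; open points are not well above background in either state, the solid line marks 0 and the dotted lines 1 and -1. Wnt8a lies beyond -1 in all 4 pools, Wnt3 to the right of 0 in all 4, and the A2 value of Foxf1, -4.77, is the furthest from 0.

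Between the genotypes, no member passed in either state. Wnt3 was higher in the labelled knockout by 1.29 ± 0.66 (log2, SE) untreated and 1.05 ± 0.66 with OHT in the paired fit (limma adjusted p = 0.876 and 0.650). For genotypes that fit takes the replicate number as its block, setting A1 beside A2 and B1 beside B2. On group means the Wnt3 differences were 1.29 ± 1.62 and 1.08 ± 1.62. The A pools differed more than the B pools. A2 was 4.47-fold above A1 untreated and 4.97-fold with OHT. B2 lay near B1, with log2 levels of -3.24 against -3.65 untreated and -2.44 against -2.29 with OHT. B1 was on slide 2 and B2 on slide 1, so genotype and slide cannot be told apart in the B pair. Untreated, both labelled knockout arrays of Prrx1 were below both wild type ones (11.6% of genes), and those of no member were above (9.22%). With OHT, Kdr on its fitted probe was above (15.5%) and Foxf1 below (8.27%). The adjusted p of the 8 members in the paired fit was at least 0.876 untreated and at least 0.595 with OHT. The B2 Erf level given above stands beside these comparisons, and its part in them was not tested.

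The order of the ligand genes followed the pool letter. All 4 arrays of the A pools were above all 4 of the B pools for 3 of 8 members, Wnt3, Wnt8a and Fgf8, where 7.38% of genes had this order, and for the untested Evx1 by its values. The opposite order was held by 0 members and 16.2% of genes. The 10-spot Kdr probe also had the A pools above, with its treated B arrays not well above background, while the fitted Kdr probe and the other Fgf8 probes did not. After normexp this held for Wnt3 and Fgf8 (5.38% of genes), and after quantile normalization for Wnt3 and Wnt8a (7.98%). The labels do not say what the letter stands for. In the wild type A against B is also slide 1 against slide 2, so pool and slide cannot be told apart there. Both labelled knockout pools were on slide 1. Untreated, A over B was 3.35-fold for Wnt3 in the wild type and 11.2-fold in the labelled knockout, and 3.66-fold and 3.06-fold for Wnt8a. For the fitted Fgf8 probe it was 1.26-fold and 1.55-fold. Mesp1 did not have this order: its brightest array was untreated B2, and neither A2 array was well above background.

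Pool A2 stood apart for Wnt3, which was at least 4-fold above each other pool in both states, as 0.113% of genes were. Summed markers of several other cell types stood apart in the same pool. The summed signal of the trophoblast markers, in multiples of the 75th percentile and led by Krt18, Krt8 and Tfap2c, was 350.3 untreated and 407 with OHT in A2, against 35.8 to 132 in the other pools, with 9 or 10 of the 10 tested markers well above background on every array, and Elf5 and Tpbpa not tested because they were dim. For mesenchyme and fibroblast markers, led by Fn1, Tagln and Acta2, it was 457 and 702 in A2 against 254 to 341 elsewhere, with 22 or 23 of 23 tested markers well above background. For ES cell markers, led by Zfp42, Utf1 and Dppa5a, it was 399 and 421 in A2 against 582 to 841 elsewhere, and all 14 were well above background on every array. Other tested genes of the streak and its mesoderm, led by Dll3, Sp5 and Snai1, summed to 19.3 and 17.4 in A2 against 10.5 to 14.9 elsewhere. Endoderm and node genes, led by Lama1, Hhex and Nog, summed to 16.3 and 21.0 against 24.7 to 57.6. For later mesoderm genes A2 had the lowest sum untreated, 34.3 against 47.2 to 69.3 in the other pools. With OHT its sum of 26.4 lay within their 21.6 to 33.1. For neural genes A2 had the highest sum untreated, 19.5 against 14.3 to 16.6, and the lowest with OHT, 21.2 against 24.8 to 28.2. Each sum is weighted to its brightest genes, and agreement gene by gene was not tested. Erf was lowest in pool A2 as well. The part of these differences in the Wnt3, Foxf1 and Prrx1 values of A2 was not tested, and in bulk RNA a larger share of such cells and more RNA per cell cannot be told apart.

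Other genes of the streak and its mesoderm were read from a list of 28, of which 23 were tested. T (Brachyury), Msgn1, Cdx4, Wnt3a and Evx2 were not, since none of their probes reached that level in any group. On group means none passed. For this and the further lists, the share of all genes passing in the paired fit was 13.5% for wild type cells. For labelled knockout cells it was 7.29%. Whether any list held more called genes than these shares was not tested. The paired fit called 3 higher and 2 lower with OHT in the wild type, among them Gsc, an organizer homeobox gene, at 2.44 ± 0.41 (log2, SE, adjusted p = 0.0164), and Wnt5b at -0.94 ± 0.12 (adjusted p = 0.00830). Lfng, a modulator of Notch in somite formation, rose by 1.32 and Cdx2, a caudal homeobox gene, fell by 1.33. In the labelled knockout it called 1 of 23, Dkk1, an inhibitor of WNT signalling, at 1.28 ± 0.28 (adjusted p = 0.0497). The list's median change was 0.14 in wild type cells and -0.02 in labelled knockout cells. Of the later mesoderm list 20 of 26 were tested. The paired fit called 2 higher and 2 lower in the wild type, Gata2 (2.53) and Flt1, a VEGF receptor gene, against Tcf15 (-1.68) and Meox1 (-1.64), both of paraxial mesoderm. In the labelled knockout it called 1 higher, Flt1 (0.95), and 5 lower, among them Tcf15 (-1.39), Meox1 (-1.57) and Etv2 (-0.73).

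The signalling routes that act on these genes held called genes in both directions. Their counts stand beside all-gene shares of 13.5% (wild type) and 7.29% (labelled knockout), and an excess over these was not tested. In the WNT list, 28 of 29 tested, the paired fit called 5 higher and 3 lower in the wild type and 3 higher and 2 lower in the labelled knockout. Lef1, the transcription factor gene that acts with beta-catenin, fell by 2.85 ± 0.15 (log2, SE) in the wild type and by 2.44 ± 0.15 in the labelled knockout (adjusted p = 0.00119 and 0.00525). Wls, needed to secrete WNT proteins, rose by 0.90 and 1.22, and Sfrp1, a secreted WNT antagonist, by 2.26 and 1.64. In the FGF and VEGF list, 19 of 20 tested, 3 were higher and 7 lower in the wild type and 1 higher and 8 lower in the labelled knockout. Dusp6, the ERK phosphatase gene that ERK itself induces, fell by 2.32 in wild type cells and fell by 2.05 in labelled knockout cells, and Etv4, an ETS factor gene of the FGF response, fell by 2.11 and fell by 1.86. In the NODAL and BMP list, all 23 tested, 4 were higher and 1 lower in the wild type, and 1 higher and 1 lower in the labelled knockout. Tdgf1, the NODAL co-receptor gene, fell by 1.00 and 0.54, and Id4, a BMP target gene, rose by 1.47 and 0.85. Of the endoderm and node list 11 of 16 were tested, and Lama1 alone passed, rising by 0.57 in wild type cells and 0.43 in labelled knockout cells. Of the neural list 7 of 10 were tested. Tubb3 rose by 1.07 in the wild type and Neurod1 fell by 0.66, and in the labelled knockout Neurod1 fell by 0.71.

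Cell type markers were called with OHT as well, some of them (Cdx2, Hand1, Tdgf1) standing in several lists. The same all-gene shares, 13.5% and 7.29%, apply to these marker counts, and an excess over them was not tested. Of the 14 ES cell markers the paired fit called 4 higher and 2 lower in the wild type, among them Fbxo15 (0.83), Dppa3 (0.96) and Utf1 (-1.52), and 3 higher and 2 lower in the labelled knockout, among them Klf2 (0.85) and Utf1 (-0.86). Of 23 mesenchyme and fibroblast markers it called Zeb1 (0.54) in the wild type and Vim (0.50) and Col5a1 (0.61) in the labelled knockout, all higher. Of 10 trophoblast markers it called 4 higher and 1 lower in the wild type. The higher ones included Tfap2c (1.41), Gata3 (1.20) and Krt18 (0.67), and the lower one was Cdx2. In the labelled knockout it called 1 lower, Hand1 (-0.86). The part of these shifts in the member changes was not tested.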

How the data were processed

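Cy3-labelled total RNA of 8 samples went onto 1 array per sample, per the labels. The deposited scanner files hold spot intensity (processed signal, background-subtracted, not scaled between arrays) and 0 or 1 flags for well above background. Per the file headers, Agilent Feature Extraction 11.5.1.1 made them. The authors' deposited value table was not used. The sources used here do not give the authors' own test.

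Control and outlier spots were left out and spots of a probe averaged. Probes were named by RefSeq accession through a gene table of GRCm38.p6. The log2 signal minus the array's 75th percentile was tested with limma 3.58.1 in R 4.3.3 on 4 group means (4 residual degrees of freedom), over 15182 genes, each through its probe with the highest mean, with Benjamini-Hochberg adjustment and a threshold of 0.05. The paired fit has the pool as a block, leaves out spots whose 11 by 11 surroundings lie at least 1 below the other arrays (log2), and uses trended and robust variance. Since each pool has 1 genotype, its block for the comparisons of genotypes is the replicate number, which sets A1 beside A2 and B1 beside B2. Same pool, same replicate number: over genes, deviations from the group means had r = 0.658 in wild type cells and 0.443 in labelled knockout cells between the states, and 0.226 to 0.508 across genotypes. On group means the p-values measure the spread between mixes of clones, which in the wild type includes the slide. In the paired fit those for OHT measure how far the change within a pool differs between pools of a genotype, taken over both genotypes together (2 residual degrees of freedom). Those for genotypes measure the spread left after the replicate number, and between B1 and B2 the slide differs along with the genotype. The fit of group means and a fit with the pool as a block were also run on simulated arrays, in which pools did not differ. The paired fit with trended and robust variance was not tested in this way. Alternatives were normexp (offset 50), run on the median instead of the mean signal because the files hold the median, quantile normalization, other filters, probes and variances, and arrays or pools left out. Members, lists and tests were chosen with earlier results of these data known. From each list up to 4 genes that passed, or else the 2 with the smallest p, were to be named; they are given for OHT only, from the paired fit, since group means called none. A result on another engineered gene is not reported here.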

Additional observations from a re-analysis of the deposited data

Results flagged for a closer look

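The fitted Foxf1 probe was singled out because its change with OHT had opposite signs in every pool of the 2 genotypes: higher in A1 and B1, lower in A2 and B2, with a mean of 0.64 (log2) in wild type cells and -2.63 in labelled knockout cells. By limma on group means the difference of the effects was -3.27 ± 1.32 (adjusted p = 1.00). The A2 value with OHT comes from a spot whose surroundings read 0.91 lower (log2) than on the other arrays. Neither treated labelled knockout array was well above background. After normexp the change was 0.12 in A1 but -0.29 in B1, so the signs were no longer opposite in every pool.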

How the results depend on the processing

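The group means called 0 members in each comparison. With the replicate block (pool) alone they also called 0 members, with a limma adjusted p of 0.0842 for Wnt8a and 0.104 for Wnt3 in the wild type. The paired fit, planned with dark patches left out and trended and robust variance, called 2 members with OHT in wild type cells and 1 in labelled knockout cells, and 0 in the other comparisons. Variants of it were chosen after seeing the data. Without the filter on dim probes it called 2 in wild type cells and 0 in labelled knockout cells (Wnt8a at adjusted p = 0.0811), with dark patches kept 2 and 0 (Wnt8a at 0.0591), with a dark cutoff of -0.5 it called 2 and 2 (Wnt3 in the labelled knockout at adjusted p = 0.0434), and with every probe on its own 2 and 1. Leaving out each pool gave 0 to 2 members in the wild type, 0 to 1 in the labelled knockout and 0 to 1 for the difference of effects. Without A1 or B1 no wild type call held, in fits whose residual spread comes from the labelled knockout pools alone. Leaving out single arrays on group means called no member.

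Over all genes, limma called 0 on group means with OHT in either genotype. The paired fit called 2054 in wild type cells and 1107 in labelled knockout cells, or 2295 and 1439 with the dark cutoff of -0.5, 1459 and 384 with dark patches kept, 1142 and 250 without the filter, and 2367 and 826 probes singly. With a pool left out these counts ran from 309 to 2848 and from 338 to 869. With an array left out group means called 0 to 29 and 0 to 388, and for the difference of effects 0 to 318.

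On group means no member had been called, which left no call to lose or turn. Of 1001 alternative values of single members' changes, 909 kept direction and did not pass, 20 newly passed and 72 moved without a call. The cause of these moves was not tested. The number of arrays, 2 a group, limits precision, and Mixl1, Evx1, Mesp1 and Foxf1 lie near background on many arrays.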
